A study of Rattus norvegicus with 12 samples.

Results

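The insulin receptor, its substrates, PI3-kinase, Akt and Foxo1 were followed through the ovaries of control, PCOS and PCOS-MV rats as 8 genes, Insr, Irs1, Irs2, Pik3r1, Pik3cg, Akt1, Akt2 and Foxo1. They were found by their symbols in the deposited expression table, 1 gene each, and made up 8 of its 19730 genes. All 8 had a mean of at least 1 FPKM over the 12 libraries and were tested among the 13430 genes that passed that limit. FPKM is the number of fragments scaled to the length of the gene and to the sequenced total. This puts genes and rats on 1 scale but does not adjust for which genes make up a library. The FPKM of a library summed to between 339830 and 373758.

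All rats were wild type Sprague Dawley females aged 15 weeks, and 1 library was made from the whole ovary of each of 4 rats per group. The control group was untreated and ate standard food. The PCOS group received letrozole, an aromatase inhibitor, at 1 mg/kg/day together with a high-fat diet for 30 days. The PCOS-MV group had the same letrozole and diet and was then given mogroside V, a sweet triterpene glycoside of monk fruit, at 600 mg/kg/day by gavage for another 30 days. The PCOS model was accepted by vaginal smears that showed an arrested cycle. The methods describe no gavage of vehicle in the PCOS group over those days, the mogroside V was an enriched preparation, and the stage of the estrous cycle at sampling is not given in the sources used here. Between 17576 and 18247 genes were above 0 in each library, and the files give no read totals. Control replicate 3 stood apart on markers of oviduct and surface epithelium, with Epcam at 32.3 FPKM against 0.891 to 2.90 FPKM in the other 11 libraries and Pax8 at 10.7 FPKM against 0.265 to 0.870 FPKM, and the smooth muscle gene Cnn1 was at 50.96 FPKM there against 8.83 to 21.2 FPKM. Since the libraries are of whole ovary, fewer cells of a type and less RNA per cell cannot be told apart.

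The insulin receptor is a tyrosine kinase that phosphorylates the Irs adaptor proteins, which in turn recruit PI3-kinase through its p85 regulatory subunit. The lipid made by PI3-kinase brings Akt to the membrane, and active Akt phosphorylates Foxo1 and moves this transcription factor out of the nucleus. In the rodent follicle Foxo1 is known mainly from granulosa cells, and Akt2 is the isoform best known from insulin-driven glucose uptake. These steps are set by phosphorylation, which was not measured, and the values below are RNA levels.

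The promoters of the 3 genes called in a comparison are shown first, beside that of the receptor, as the 250 bases before and the 50 bases after the annotated start in RefSeq (GRCr8). RefSeq promoters were found for 7 of the 8 genes, and Irs2 was the one not matched. Capitals mark exact matches, on either strand, to 3 short motifs: the Foxo core GTAAACA, the GC box GGGCGG bound by Sp1-type factors, and GAGGAAGT, which holds the GGAA core of ETS factors and was added after the Pik3cg sequence had been seen.
Insr (chr12:6128754-6129053, minus strand): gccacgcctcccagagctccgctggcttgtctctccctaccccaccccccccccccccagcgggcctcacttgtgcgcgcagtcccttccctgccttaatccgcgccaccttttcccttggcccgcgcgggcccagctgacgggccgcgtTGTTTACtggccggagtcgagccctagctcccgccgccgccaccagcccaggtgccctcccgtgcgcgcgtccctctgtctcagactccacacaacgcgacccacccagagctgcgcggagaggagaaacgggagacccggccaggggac
Pik3r1 (chr2:34697611-34697910, minus strand): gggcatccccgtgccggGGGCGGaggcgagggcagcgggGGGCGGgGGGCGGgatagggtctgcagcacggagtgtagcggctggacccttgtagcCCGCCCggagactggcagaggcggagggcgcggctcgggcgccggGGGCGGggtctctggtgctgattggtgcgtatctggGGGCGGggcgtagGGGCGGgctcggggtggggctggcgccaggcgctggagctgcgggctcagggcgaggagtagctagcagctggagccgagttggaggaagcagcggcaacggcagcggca
Pik3cg (chr6:54529460-54529759, minus strand): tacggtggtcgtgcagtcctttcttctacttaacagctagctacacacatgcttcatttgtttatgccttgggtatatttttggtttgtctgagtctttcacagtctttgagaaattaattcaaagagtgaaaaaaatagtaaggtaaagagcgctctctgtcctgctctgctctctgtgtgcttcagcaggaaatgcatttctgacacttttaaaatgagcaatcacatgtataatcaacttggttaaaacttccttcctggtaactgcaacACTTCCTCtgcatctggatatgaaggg
Foxo1 (chr2:138462724-138463023, plus strand): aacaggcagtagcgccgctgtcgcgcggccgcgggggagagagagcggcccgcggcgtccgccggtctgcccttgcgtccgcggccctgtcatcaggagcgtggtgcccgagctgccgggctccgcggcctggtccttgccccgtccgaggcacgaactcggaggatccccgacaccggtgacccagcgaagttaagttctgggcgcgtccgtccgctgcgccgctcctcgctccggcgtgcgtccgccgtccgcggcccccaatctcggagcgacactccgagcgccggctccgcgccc

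The Foxo core was found once in the Insr promoter, 100 to 94 bases before the start and as its reverse complement TGTTTAC, and in none of the other 6 promoters. It occurred in 3.78% of the 33469 RefSeq promoters of this length. The Pik3r1 promoter held 7 GC boxes and that of Irs1 3, and 33.1% of all promoters held at least 1. The ETS motif, which 2.42% of all promoters held, lay 23 to 30 bases after the start of Pik3cg. In base composition the Pik3cg promoter lay at the other end from Pik3r1 and Foxo1, with 39.7% G or C and 3 CpG sites against 75.3% and 31 CpG sites in Pik3r1 and 75.0% and 49 CpG sites in Foxo1. The median promoter had 51.7% G or C and 7 CpG sites. A match of letters is a description and does not show that a factor binds.

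Across all 12 libraries, Foxo1 had the highest mean level of the 8 genes (85.1 FPKM, above 95.1% of the genes tested), followed by Akt1 (70.02 FPKM) and Akt2 (67.3 FPKM). Pik3r1 and Insr were near each other at 24.6 and 23.9 FPKM. Irs1 had a mean of 14.6 FPKM, Pik3cg of 9.09 FPKM and Irs2 of 7.64 FPKM, which was above 41.4% of the genes tested. No other gene of the table overlapped any of the 8 in the authors' coordinates.

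In the PCOS ovary, the 2 PI3-kinase genes Pik3cg and Pik3r1 were higher than in control ovary, and the other 6 genes did not pass the test. In the PCOS-MV ovary both were lower than in PCOS, and so was Foxo1. In PCOS compared with control, 2 of the 8 genes were called by limma, 25.0% of them, where 27.4% of all genes tested were called. Both were higher, in a comparison where 11.9% of all genes were called higher. In PCOS-MV compared with PCOS, 3 of the 8 were called, 37.5% of them, against 25.7% of all genes, and all 3 were lower, where 11.4% of all genes were called lower. The shares called in either direction were thus near the background. The groups were apart, with no overlap of their values, for 2 of the 8 genes in PCOS compared with control, against 31.0% of all genes, and for 4 of the 8 in PCOS-MV compared with PCOS, against 30.0% of all genes. No gene of the 8 was called in PCOS-MV compared with control, where 0.00745% of all genes, 1 gene, was called by limma. At an unadjusted p below 0.05 that comparison held 1 of the 8 (Foxo1) and 1142 of the 13430 genes. The PCOS libraries enter both of the first 2 comparisons, so their values are given side by side and not as independent results.

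**Figure D1:**
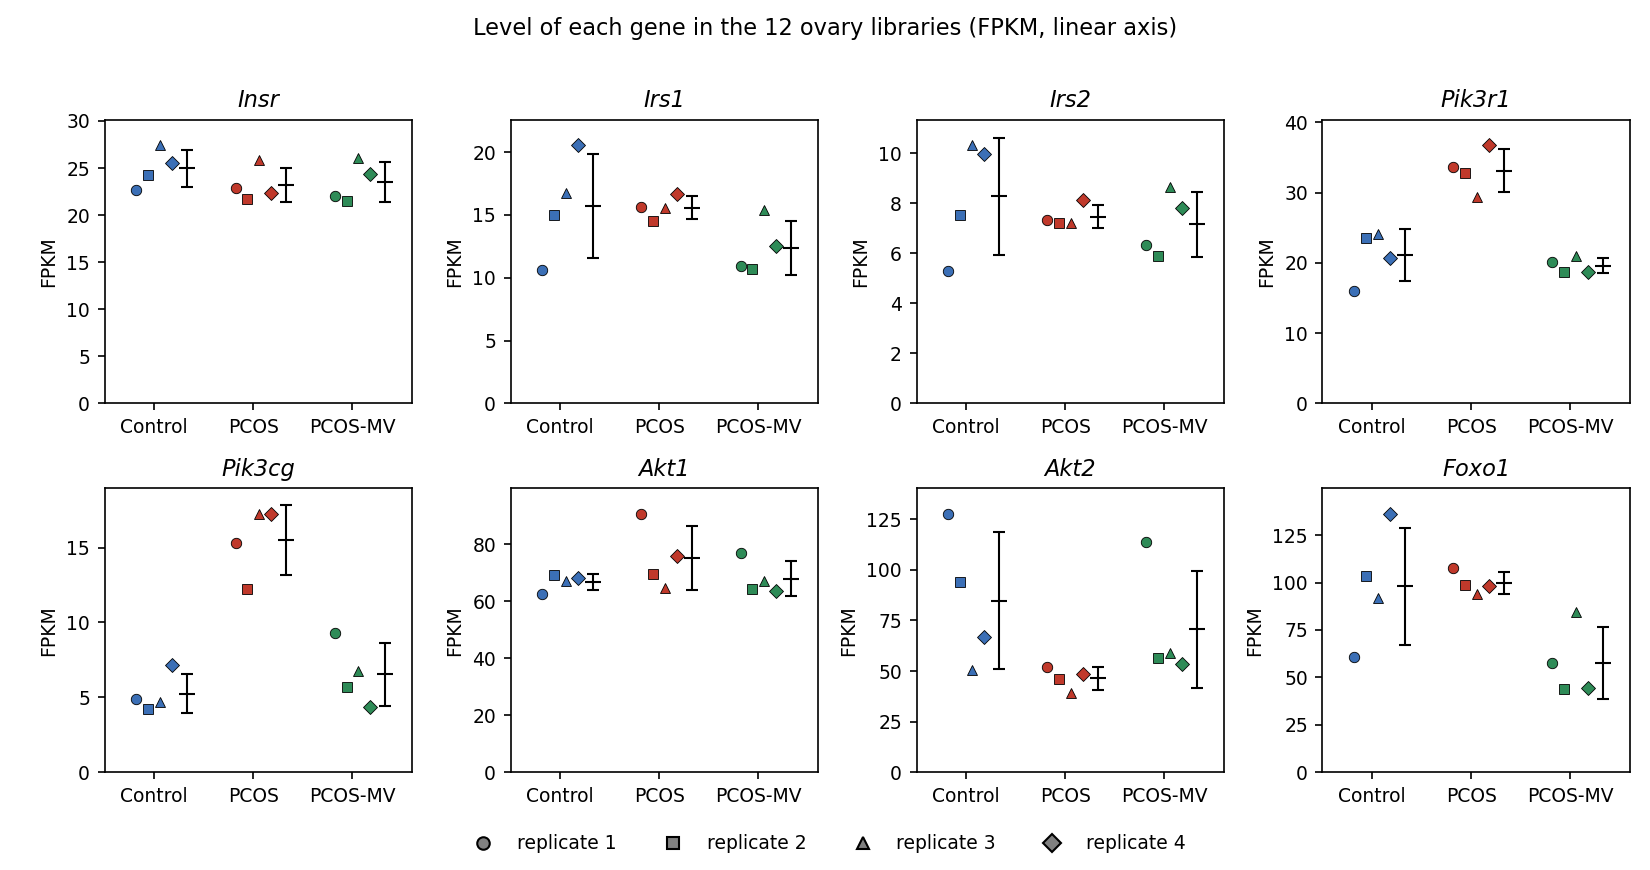
FPKM of each of the 8 genes (vertical axes, linear and starting at 0) in each library of the 3 groups, with marker shape giving the replicate and the bar the mean ± SD (n = 4). The PCOS values of Pik3r1 (29.3 to 36.7) and Pik3cg (12.2 to 17.2) lie above all control and PCOS-MV values, and the PCOS-MV values of Foxo1 (43.9 to 84.6) lie below all PCOS values.

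Insr (ENSRNOG00000029986, chromosome 12 from 1680957 to 1816414 in the authors' coordinates) encodes the receptor itself. Its level was 22.6, 24.3, 27.4 and 25.5 FPKM in the control libraries, 22.8, 21.8, 25.9 and 22.4 FPKM in PCOS and 22.0, 21.5, 26.1 and 24.4 FPKM in PCOS-MV, in the order of the replicates. The 3 groups overlapped throughout. The log2 fold change was -0.10 in PCOS compared with control (95% interval -0.29 to 0.089, limma adjusted p = 0.406) and 0.015 in PCOS-MV compared with PCOS (95% interval -0.18 to 0.21, limma adjusted p = 0.916). These intervals leave out a change of the receptor's RNA by more than 0.29 on the log2 scale in either comparison.

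Irs1 (ENSRNOG00000014597, chromosome 9 from 88033668 to 88086488) and Irs2 (ENSRNOG00000023509, chromosome 16 from 83824430 to 83848684) encode the docking proteins that the receptor phosphorylates. Irs1 was at 10.6, 15.0, 16.7 and 20.5 FPKM in control, at 15.6, 14.5, 15.6 and 16.7 FPKM in PCOS and at 10.9, 10.7, 15.4 and 12.5 FPKM in PCOS-MV. The control rats spanned the range of both other groups, while 3 of the 4 PCOS-MV values lay below every PCOS value. In PCOS compared with control the log2 fold change of Irs1 was 0.022 (95% interval -0.36 to 0.40, limma adjusted p = 0.938). From PCOS to PCOS-MV it was -0.32 (SE 0.113, limma adjusted p = 0.0691, exact permutation p = 0.0571), and without PCOS-MV replicate 3, the highest of its group, it was -0.42 with a limma adjusted p of 0.00927. Over all 13 alternatives of processing it was -0.42 to -0.26, with limma adjusted p from 0.00927 to 0.185. Irs2 was at 5.31, 7.53, 10.3 and 9.96 FPKM in control, at 7.33, 7.19, 7.22 and 8.14 FPKM in PCOS and at 6.32, 5.87, 8.66 and 7.82 FPKM in PCOS-MV. Its log2 fold changes were -0.095 in PCOS compared with control (95% interval -0.50 to 0.31) and -0.064 in PCOS-MV compared with PCOS (95% interval -0.33 to 0.20).

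Within a library Irs1 was the higher of the 2 substrates in all 12 rats. The difference of Irs2 minus Irs1 in log2(FPKM + 1) was -0.852 ± 0.141 in control, -0.970 ± 0.0410 in PCOS and -0.713 ± 0.07 in PCOS-MV (SD, n = 4). The PCOS-MV libraries, from -0.766 to -0.617, lay wholly above the PCOS libraries, from -1.01 to -0.921, so that the gap between the substrates was narrower in PCOS-MV by 0.257 (exact permutation p = 0.0286, the smallest that 4 rats against 4 allow). Of single genes, 30.0% had groups apart in PCOS-MV compared with PCOS. Between PCOS and control the difference was -0.117 (exact permutation p = 0.114), and between PCOS-MV and control 0.140 (exact permutation p = 0.143).

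Pik3r1 (ENSRNOG00000018903, chromosome 2 from 31745088 to 31826867) encodes the p85α family of regulatory subunits, which hold the catalytic subunit and bind the phosphorylated Irs proteins. Its level was 16.0, 23.5, 24.1 and 20.7 FPKM in control, 33.6, 32.8, 29.3 and 36.7 FPKM in PCOS and 20.2, 18.7, 20.9 and 18.7 FPKM in PCOS-MV. Every PCOS rat lay above every rat of the other groups. Pik3r1 rose by 0.64 (log2) in PCOS compared with control (SE 0.131, 95% interval 0.34 to 0.94, limma adjusted p = 0.0077, exact permutation p = 0.0286), from 21.1 ± 3.71 to 33.1 ± 3.04 FPKM (SD, n = 4). From PCOS to PCOS-MV it fell by 0.72 (SE 0.0819, 95% interval -0.91 to -0.54, limma adjusted p = 0.000632, exact permutation p = 0.0286), to 19.63 ± 1.099 FPKM. Between PCOS-MV and control the log2 fold change was -0.084 (95% interval -0.37 to 0.21).

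Pik3cg (ENSRNOG00000009385, chromosome 6 from 51465908 to 51498337) encodes p110γ, the catalytic subunit that acts downstream of G protein-coupled receptors and does not bind p85. Its level was 4.88, 4.23, 4.66 and 7.14 FPKM in control, 15.3, 12.2, 17.2 and 17.2 FPKM in PCOS and 9.32, 5.68, 6.79 and 4.33 FPKM in PCOS-MV. The lowest PCOS rat was above the highest rat of either other group. Pik3cg had the largest differences of the 8 genes, with a rise of 1.42 (log2) in PCOS compared with control (SE 0.159, 95% interval 1.05 to 1.78, limma adjusted p = 0.000352, exact permutation p = 0.0286) and a fall in PCOS-MV compared with PCOS (log2 fold change -1.16, SE 0.199, 95% interval -1.62 to -0.71, limma adjusted p = 0.00406, exact permutation p = 0.0286). The calls of Pik3r1 and Pik3cg in both comparisons were kept in all 13 alternatives of processing, including each rat left out in turn.

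Pik3cg is known mainly from leukocytes, so leukocyte markers were set beside it. Of 16 listed markers 14 were in the table and 13 were tested, of which 4 were higher and 0 lower in PCOS compared with control and 1 was higher and 3 were lower in PCOS-MV compared with PCOS. Their summed level was 503.7 to 608.4 FPKM in control, 487.3 to 694.9 FPKM in PCOS and 546.2 to 733.1 FPKM in PCOS-MV, so the 3 groups overlapped. None was at 0 in all 12 libraries. Cd74 and Lyz2 were the most abundant genes of the sum. Cd74 had means of 268.9, 272.4 and 286.6 FPKM and Lyz2 of 160.9, 187.5 and 199.0 FPKM in control, PCOS and PCOS-MV. Ptprc, which encodes the pan-leukocyte antigen CD45, had means of 9.25, 8.68 and 9.88 FPKM. Nkg7 had means of 2.76, 6.92 and 3.54 FPKM and Adgre1 of 7.19, 10.5 and 6.22 FPKM. Cd68, in the other direction, had means of 15.5, 9.89 and 17.7 FPKM. The macrophage receptor gene Csf1r rose by 0.45 in PCOS compared with control (limma adjusted p = 0.00646). Pik3cg minus the mean of the leukocyte markers within a library was -1.24 ± 0.347 in control, -0.0289 ± 0.334 in PCOS and -1.06 ± 0.513 in PCOS-MV on the log2(FPKM + 1) scale (SD, n = 4). This difference was higher in PCOS than in control by 1.21 (exact permutation p = 0.0286, groups apart), and the difference of PCOS-MV from PCOS was -1.04 (exact permutation p = 0.0571, with PCOS-MV replicate 1 above PCOS replicate 2). Of single genes, 31.0% had groups apart in PCOS compared with control. The part of leukocytes in the level of Pik3cg was not tested.

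Markers of theca and interstitial cells differed in the same comparisons. Of the 9 tested, 5 were higher and 3 lower in PCOS than in control, and 1 was higher and 5 were lower in PCOS-MV than in PCOS. Their summed level was 3395 to 6042 FPKM in control, 3083 to 5895 FPKM in PCOS and 2497 to 5082 FPKM in PCOS-MV, but its make-up differed. Star and Cyp11a1 were its most abundant genes in control and PCOS-MV, and Cyp17a1 and Insl3 in PCOS. Star went down in PCOS from 2219 to 715.6 FPKM (log2 fold change -1.70, limma adjusted p = 0.00241). Cyp11a1 went down from 2194 to 968.2 FPKM (-1.14, limma adjusted p = 0.0161). In PCOS-MV the means of Star and Cyp11a1 were 2054 and 1492 FPKM. In the other direction, Cyp17a1, which encodes the androgen-forming 17α-hydroxylase, had group means of 34.6, 1190 and 37.4 FPKM, and Insl3, a theca cell peptide hormone gene, of 5.70, 1032 and 7.89 FPKM. None of the 9 was at 0 in all 12 libraries, and the part of these cells in the levels of Pik3r1 and Pik3cg was not tested. Star, Cyp11a1 and Lhcgr were also in the list of luteal markers, so the counts of these lists were not independent. Of the other marker lists, in PCOS compared with control, 3 of 8 luteal markers were higher and 4 lower, 1 of 7 of endothelium were higher and 6 lower, 0 of 5 of adipocytes were higher and 5 lower, 1 of 8 of smooth muscle and stroma were higher and 1 lower, and 1 of 5 of oocytes were higher and 0 lower. Of the 6 tested for oviduct and surface epithelium 0 were called by limma in that comparison. In PCOS-MV compared with PCOS the same lists gave 2 higher and 2 lower for luteal cells, 4 higher and 0 lower for endothelium, 2 higher and 0 lower for adipocytes, and 0 higher and 1 lower each for smooth muscle and stroma, oocytes, and oviduct and surface epithelium.

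Akt1 (ENSRNOG00000028629, chromosome 6 from 137218376 to 137236258) encodes the isoform known for growth and survival signals. Its level was 62.7, 69.2, 67.1 and 68.1 FPKM in control, 90.7, 69.8, 64.6 and 76.0 FPKM in PCOS and 77.0, 64.5, 67.1 and 63.6 FPKM in PCOS-MV, and the groups overlapped. The log2 fold change was 0.16 in PCOS compared with control (95% interval -0.079 to 0.40, limma adjusted p = 0.293) and -0.14 in PCOS-MV compared with PCOS (95% interval -0.40 to 0.13, limma adjusted p = 0.418).

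Akt2 (ENSRNOG00000018677, chromosome 1 from 84411726 to 84450162) varied more between the control rats and between the PCOS-MV rats than any other of the 8 genes. Its level was 127.6, 94.2, 50.4 and 66.8 FPKM in control, 52.0, 45.9, 39.0 and 48.5 FPKM in PCOS and 113.8, 56.3, 58.9 and 53.7 FPKM in PCOS-MV. Only control replicate 3 reached into the PCOS range, and every PCOS-MV rat lay above every PCOS rat. In PCOS compared with control the log2 fold change was -0.78 (SE 0.257, 95% interval -1.36 to -0.19), which did not pass the test (limma adjusted p = 0.0533, exact permutation p = 0.0571). Control replicate 3, the library that stood apart on epithelial markers, was also the lowest of its group for Akt2. Leaving it out therefore widens the difference in any case. Without it the log2 fold change was -0.9964 and passed the test (limma adjusted p = 0.00878). The part of epithelial cells in this value was not tested. Without control replicate 1, the highest of its group, the log2 fold change was -0.56. Over all 13 alternatives of processing the limma adjusted p of Akt2 in this comparison was 0.00878 to 0.128. In PCOS-MV compared with PCOS the log2 fold change was 0.53 (SE 0.229, 95% interval 0.0097 to 1.06), with a limma adjusted p of 0.124 and an exact permutation p of 0.0286. Without PCOS-MV replicate 1 it was 0.28.

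The balance of the 2 Akt genes within a library separated PCOS from both other groups. Akt2 minus Akt1 in log2(FPKM + 1) was 1.01, 0.439, -0.405 and -0.0275 in control, -0.789, -0.594, -0.713 and -0.638 in PCOS and 0.558, -0.192, -0.186 and -0.240 in PCOS-MV. All 4 PCOS libraries lay below all 8 others, and PCOS-MV replicate 1 lay far above the rest of its group. Of single genes, 31.0% had groups apart in PCOS compared with control and 30.0% in PCOS-MV compared with PCOS. That share was not computed for differences between 2 genes, and Akt2 itself was called in neither comparison. The difference was -0.939 in PCOS compared with control (exact permutation p = 0.0286) and 0.669 in PCOS-MV compared with PCOS (exact permutation p = 0.0286). PCOS-MV and control overlapped, with a difference of -0.270 (exact permutation p = 0.543).

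**Figure D2:**
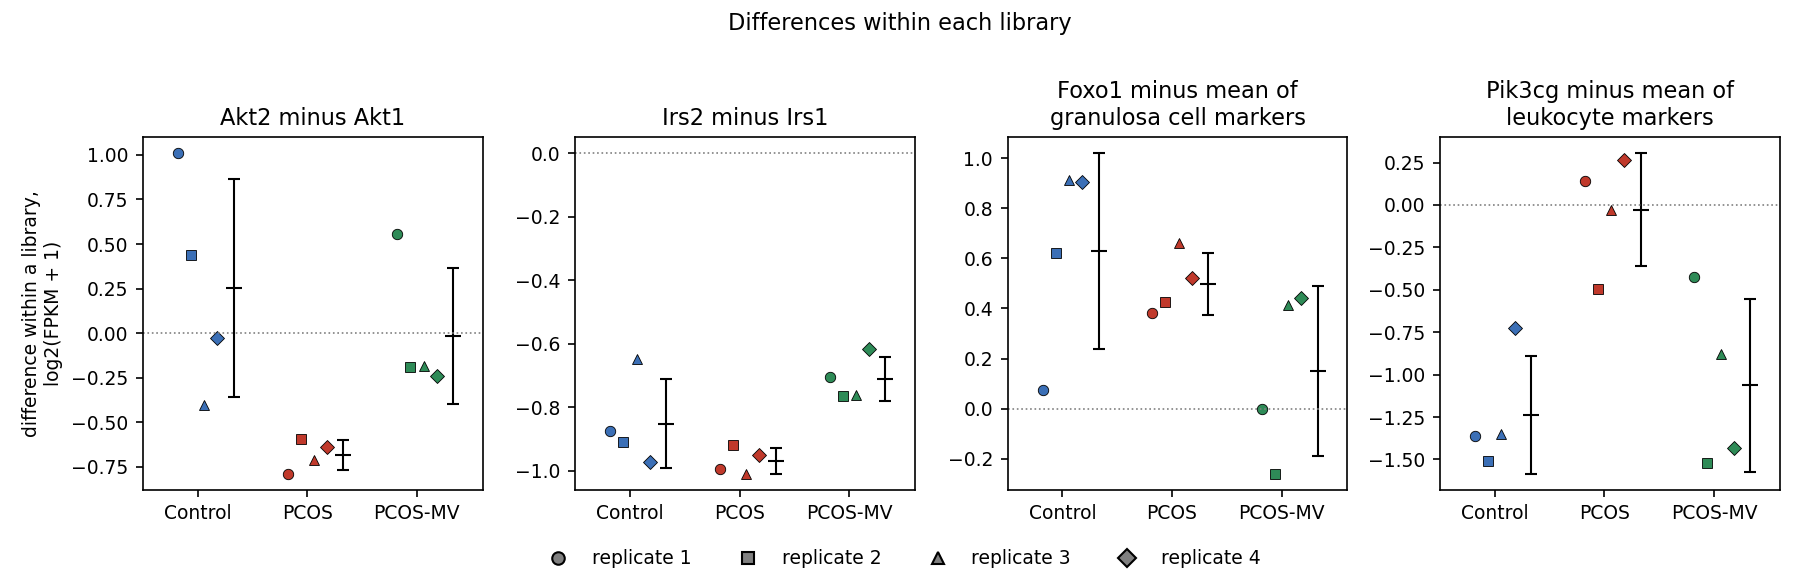
Differences between 2 genes, or between a gene and the mean of a marker list, within each of the 12 libraries (vertical axes, log2(FPKM + 1) scale), with marker shape giving the replicate and the bar the mean ± SD (n = 4). The 4 PCOS libraries lie lowest for Akt2 minus Akt1 (-0.789 to -0.594), and the PCOS-MV libraries lie above the PCOS libraries for Irs2 minus Irs1.

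Foxo1 (ENSRNOG00000013397, chromosome 2 from 141451234 to 141527016) encodes the transcription factor at the end of the path. Its level was 61.0, 103.2, 91.7 and 136.1 FPKM in control, 107.9, 98.9, 93.9 and 98.2 FPKM in PCOS and 57.7, 43.9, 84.6 and 44.5 FPKM in PCOS-MV. The PCOS rats lay inside the range of the control rats, and the PCOS-MV rats lay wholly below the PCOS rats. The log2 fold change was 0.080 in PCOS compared with control (95% interval -0.40 to 0.56, limma adjusted p = 0.808). Foxo1 fell by 0.83 (log2) from PCOS to PCOS-MV (SE 0.193, 95% interval -1.27 to -0.39, limma adjusted p = 0.0151, exact permutation p = 0.0286), from 99.7 ± 5.89 to 57.7 ± 19.0 FPKM (SD, n = 4). This call was kept in all 13 alternatives, with limma adjusted p from 0.000759 to 0.0410. Against control the log2 fold change in PCOS-MV was -0.75 (95% interval -1.39 to -0.11, limma adjusted p = 0.556, exact permutation p = 0.0571).

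Granulosa cell markers moved in the same comparison. All 12 listed were tested, of which 5 were higher and 1 was lower in PCOS than in control, and 1 was higher and 4 were lower in PCOS-MV than in PCOS. Their summed level was 1049 to 1494 FPKM in control, 1633 to 2342 FPKM in PCOS and 937.9 to 1560 FPKM in PCOS-MV, and none was at 0 in all 12 libraries. Inha was the most abundant gene of the sum, with group means of 489.7, 806.5 and 548.2 FPKM. The aromatase gene Cyp19a1 had group means of 16.7, 58.5 and 11.5 FPKM. In the other direction, Fst had group means of 39.0, 22.7 and 42.7 FPKM, Nr5a2 of 42.8, 23.0 and 38.7 FPKM and Amh of 48.9, 28.0 and 41.1 FPKM. The median log2 fold change of the 12 markers was -0.00011 in PCOS compared with control and -0.285 in PCOS-MV compared with PCOS. Foxo1 minus the mean of these markers within a library was 0.628 ± 0.392 in control, 0.496 ± 0.124 in PCOS and 0.149 ± 0.339 in PCOS-MV on the log2(FPKM + 1) scale (SD, n = 4). The difference of PCOS-MV from PCOS in this value was -0.348 and did not pass the test (exact permutation p = 0.143). The part of granulosa cells in the level of Foxo1 was not tested.

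**Figure D3:**
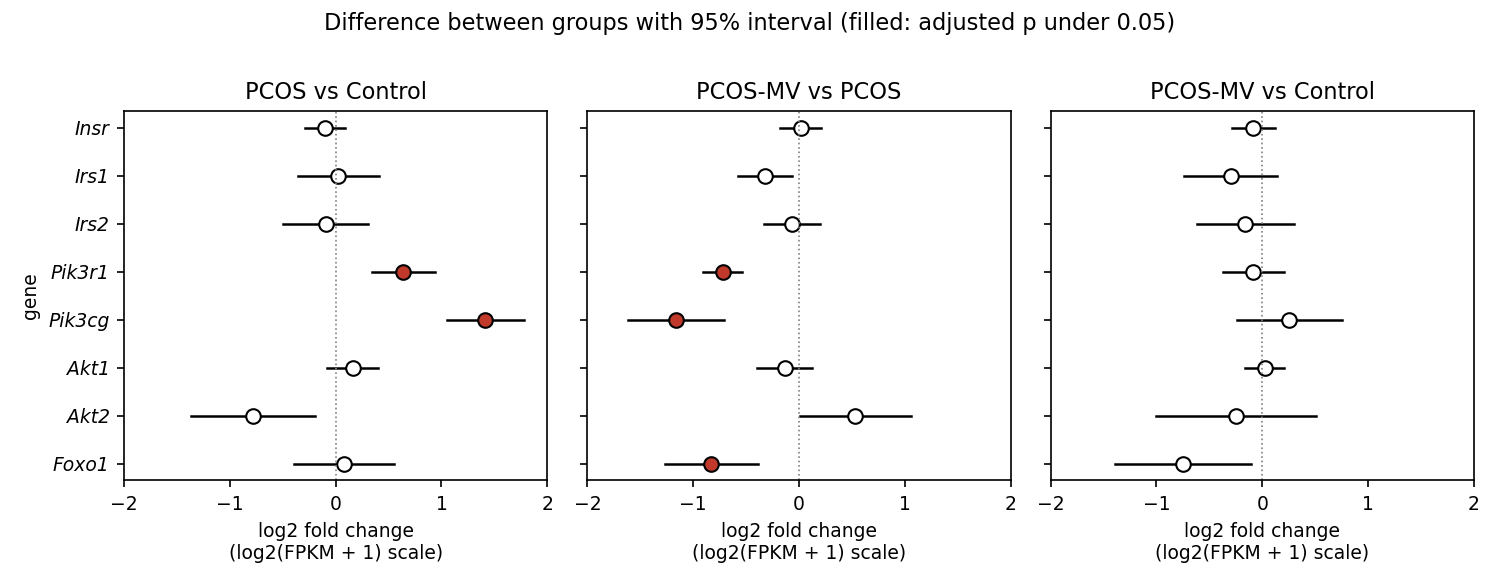
Log2 fold change (horizontal axes, log2(FPKM + 1) scale) of the 8 genes in the 3 comparisons, with bars for the 95% interval of limma and filled points for an adjusted p under 0.05. Pik3r1 and Pik3cg are filled in the first 2 panels and Foxo1 in the second, and no gene is filled for PCOS-MV compared with control.

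The rats of the PCOS group resembled each other more in these genes than the control rats did. On the log2(FPKM + 1) scale the SD between rats was lower in PCOS than in control for 7 of the 8 genes, all but Akt1, and for 63.9% of all genes tested. For Foxo1 it was 0.475 in control, 0.083 in PCOS and 0.435 in PCOS-MV. For Irs1 the SDs were 0.374, 0.077 and 0.224, and for Akt2 they were 0.576, 0.174 and 0.505. Control replicate 1 was the lowest of its group for 6 of the 8 genes and the highest for Akt2, and PCOS-MV replicate 3 was the highest of its group for 5 of the 8. Over all genes tested the median SD was 0.176, 0.130 and 0.169, and control replicate 3, not replicate 1, had the lowest mean correlation with the rest of its group (0.936).

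The genes most like each of the 8 over the 12 libraries are given with Pearson's r of log2(FPKM + 1) as a description, since the libraries share their groups. Pik3cg was closest to Aox1 (r = 0.964), Csdc2 and Hao2, and Hao2, which encodes a peroxisomal hydroxyacid oxidase, had group means of 91.3, 565 and 117 FPKM. Pik3r1 was closest to Zfyve9 (r = 0.972), Acer2 and Igfbp6. Akt2 was closest to Slc29a3 (r = 0.980), Trappc5 and Pabpc4. Slc29a3, which encodes a nucleoside transporter, had group means of 14.7, 8.07 and 12.9 FPKM. Foxo1 was closest to Auts2 (r = 0.957), Med12l and Bmp2, and Bmp2 had group means of 11.2, 13.7 and 6.39 FPKM. Irs1 was closest to Ntn4 (r = 0.945), Irs2 to Cys1 (r = 0.959), Akt1 to B3gnt2 (r = 0.948) and Insr to Atp6v1c2 (r = 0.908).

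Around the 8 genes, 106 other genes of the pathway were tested, in lists by role. In PCOS compared with control 12 of them were higher and 24 lower, together 34.0% against 27.4% of all genes. In PCOS-MV compared with PCOS 20 were higher and 9 lower, together 27.4% against 25.7% of all genes. Their median log2 fold change was -0.183 and 0.101, against -0.0328 and 0.0254 over all genes tested. No gene of the 106 was called by limma in PCOS-MV compared with control, where 10 had an unadjusted p below 0.05.

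At the receptor, 0 of 9 other genes were higher and 3 lower in PCOS than in control, and 3 were higher and 1 lower in PCOS-MV than in PCOS. Igf1r, the receptor for insulin-like growth factor 1 and the closest relative of Insr listed here, moved while Insr did not pass the test. Its level was 59.9, 55.0, 43.0 and 52.5 FPKM in control, 30.7, 24.7, 26.5 and 27.0 FPKM in PCOS and 51.7, 44.0, 56.5 and 39.0 FPKM in PCOS-MV, with PCOS wholly below both other groups. Igf1r fell by 0.92 (log2) in PCOS compared with control (limma adjusted p = 0.000545) and rose by 0.78 in PCOS-MV compared with PCOS (limma adjusted p = 0.00275). Socs1, a suppressor of cytokine and insulin receptor signalling, fell by 0.43 in PCOS-MV compared with PCOS (limma adjusted p = 0.0178), a call lost with all 12 libraries in 1 model and without PCOS replicate 2.

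Among 13 other substrates and adaptors, 2 were higher and 2 lower in PCOS than in control, and 2 were higher and 2 lower in PCOS-MV than in PCOS. Irs3, the third substrate gene of rodents, had the widest difference of this step. It was at 3.06, 4.04, 4.65 and 5.33 FPKM in control, at 19.0, 21.5, 21.6 and 20.7 FPKM in PCOS and at 4.76, 3.62, 8.23 and 4.04 FPKM in PCOS-MV. In PCOS it was thus above Irs1 in each of the 4 rats and in the other groups below Irs1 in each of the 8. Irs3 rose by 2.06 in PCOS compared with control (SE 0.132, limma adjusted p = 2.14e-05) and fell by 1.87 in PCOS-MV compared with PCOS (SE 0.198, limma adjusted p = 0.000478). Dok1, an adaptor that dampens tyrosine kinase signals, fell by 0.53 in PCOS compared with control (limma adjusted p = 0.00407). The adaptor gene Shc1 was called lower in PCOS (log2 fold change -0.23, limma adjusted p = 0.032) and then higher in PCOS-MV (0.27, limma adjusted p = 0.0249), and these calls were lost in 7 and 6 of 13 alternatives.

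Of 11 other PI3-kinase subunits, 2 were higher and 3 lower in PCOS than in control, and 0 were called by limma in PCOS-MV compared with PCOS, where 2 had an unadjusted p below 0.05. Pik3r2, which encodes the second p85 subunit, rose with Pik3r1, from 12.9 ± 0.569 to 20.7 ± 1.39 FPKM (SD, n = 4, log2 fold change 0.64, limma adjusted p = 0.000328). In PCOS-MV it was at 16.9 ± 2.41 FPKM (log2 fold change -0.28 from PCOS, limma adjusted p = 0.0801). Pik3c2a, a class II catalytic subunit gene named here after its value was seen, was the other one higher in PCOS (log2 fold change 0.24, limma adjusted p = 0.0413). Of the class I catalytic subunits besides Pik3cg none was called higher. Pik3cb fell by 0.41 in PCOS compared with control (limma adjusted p = 0.00888), the log2 fold change of Pik3ca was -0.14 (limma adjusted p = 0.195), and Pik3cd had -0.26 (limma adjusted p = 0.0499), a call lost in 10 of 13 alternatives. In control the mean of Pik3cg, 5.23 FPKM, lay below the 17.0 FPKM of Pik3ca and the 21.9 FPKM of Pik3cd, and in PCOS, at 15.5 FPKM, it was near the 15.2 FPKM of Pik3ca and the 18.1 FPKM of Pik3cd. Pik3r5, which encodes the p101 partner of p110γ, was at 1.88 FPKM in control, 1.07 FPKM in PCOS and 1.30 FPKM in PCOS-MV, and its lower level in PCOS (log2 fold change -0.46, limma adjusted p = 0.0359) was lost in 6 of 13 alternatives.

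Among 15 phosphatases and brakes, 2 were higher and 4 lower in PCOS than in control, and 2 were higher and 1 lower in PCOS-MV than in PCOS. Trib1, a pseudokinase gene, fell by 0.70 in PCOS compared with control (limma adjusted p = 0.0233), a call lost without PCOS replicate 2, 3 or 4 (adjusted p from 0.0548 to 0.0643). Trib3, an inhibitor of Akt, rose by 0.97 in PCOS-MV compared with PCOS (limma adjusted p = 0.0193), a call lost without PCOS replicate 2 or 3. Its level was low, with means of 1.38, 0.485 and 2.03 FPKM in control, PCOS and PCOS-MV. The mean over all 12 libraries, 1.30 FPKM, was near the limit for testing and above only 3.78% of the genes tested.

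The kinases around Akt gave 1 higher and 1 lower of 11 in PCOS compared with control, and 2 higher and 1 lower in PCOS-MV compared with PCOS. The pair were Sgk genes, which encode kinases related to Akt, and they went opposite ways. Sgk1 was at 155.7 ± 26.3 FPKM in control, 63.2 ± 8.002 FPKM in PCOS and 158.6 ± 44.6 FPKM in PCOS-MV (SD, n = 4), with a fall of 1.28 (limma adjusted p = 0.000242) and a rise of 1.28 (limma adjusted p = 0.00166). Sgk3 was at 13.1 ± 1.72, 18.3 ± 1.57 and 10.6 ± 2.32 FPKM (SD, n = 4), with a rise of 0.45 (limma adjusted p = 0.0122) and a fall of 0.75 (limma adjusted p = 0.00644).

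Of 19 Akt substrates and mTORC1 genes, 1 was higher and 4 lower in PCOS than in control, and 6 were higher and 1 lower in PCOS-MV than in PCOS. Rheb, the small GTPase that switches mTORC1 on, was at 84.1 ± 4.98, 47.5 ± 2.76 and 89.2 ± 24.5 FPKM in control, PCOS and PCOS-MV (SD, n = 4). Rheb fell by 0.81 (limma adjusted p = 0.000104) and rose by 0.86 (limma adjusted p = 0.00613). Deptor, an inhibitor of mTOR, moved the same ways, with a fall of 0.47 (limma adjusted p = 0.0108) and a rise of 0.91 (limma adjusted p = 0.00448). Pde3b, a phosphodiesterase that insulin activates through Akt, fell by 0.49 in PCOS-MV compared with PCOS (limma adjusted p = 0.0171). The ribosomal protein gene Rps6 was called higher in PCOS by 0.25 (limma adjusted p = 0.0458), which was lost in 10 of 13 alternatives.

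Among 8 other Foxo factors and partners, 1 was higher and 1 lower in PCOS than in control, and 1 was higher and 1 lower in PCOS-MV than in PCOS. Foxo6 was the one Foxo gene called higher in PCOS, from 2.67 ± 0.987 to 8.84 ± 1.58 FPKM, and it was at 4.06 ± 1.34 FPKM in PCOS-MV (SD, n = 4). Its log2 fold changes were 1.445 (limma adjusted p = 0.000724) and -0.99 (limma adjusted p = 0.0116). Foxo3 was at 21.1, 26.4 and 22.9 FPKM on average, and Foxo4 was at 16.3, 16.9 and 17.6 FPKM. In PCOS compared with control the log2 fold change of Foxo3 was 0.32 (95% interval 0.075 to 0.56, limma adjusted p = 0.0565). The PCOS values of Foxo3, 25.2 to 27.5 FPKM, lay wholly above the control values, 16.7 to 23.7 FPKM. Foxo3 was called with the libraries rescaled (limma adjusted p = 0.0346) and without control replicate 3, the highest of its group (limma adjusted p = 0.0342). Ywhab, one of the 14-3-3 proteins that hold phosphorylated Foxo in the cytoplasm, fell by 0.37 (limma adjusted p = 0.0118) and rose by 0.51 (limma adjusted p = 0.0017).

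Genes known as Foxo targets moved in both directions. Of 21 tested besides Insr and Irs2, 3 were higher and 6 lower in PCOS than in control, and 4 were higher and 2 lower in PCOS-MV than in PCOS. Gadd45a, a growth arrest and DNA damage gene, had the widest differences, at 99.8, 147.5, 167.8 and 159.2 FPKM in control, 22.3, 18.8, 33.5 and 22.3 FPKM in PCOS and 120.3, 93.5, 369.6 and 136.4 FPKM in PCOS-MV. The PCOS rats lay far below the rest, and PCOS-MV replicate 3 far above its group. Gadd45a fell by 2.52 (limma adjusted p = 6.96e-05) and rose by 2.66 (limma adjusted p = 0.00206). Klf15, a transcription factor gene of amino acid and glucose metabolism, went the opposite way, at 6.15 ± 1.41, 12.9 ± 0.351 and 5.89 ± 0.637 FPKM (SD, n = 4), with a rise of 0.98 (limma adjusted p = 0.00149) and a fall of 1.02 (limma adjusted p = 0.00014). The part of Foxo1 in the levels of these genes was not tested.

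**Figure D4:**
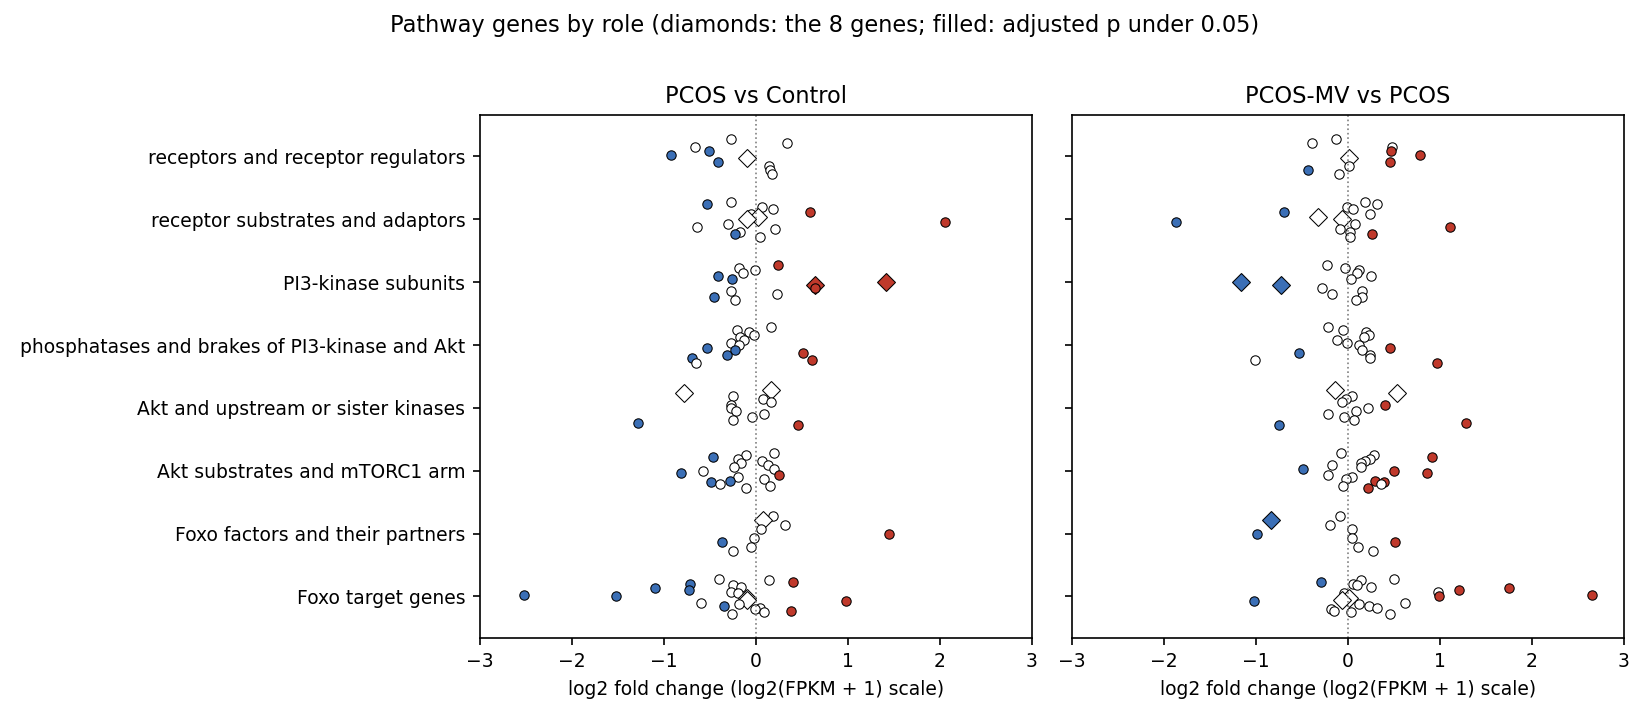
Log2 fold change (horizontal axes, log2(FPKM + 1) scale) of the pathway genes tested, in rows by role, for PCOS compared with control and PCOS-MV compared with PCOS. Diamonds are the 8 genes and circles the others, filled where the limma adjusted p was under 0.05 (red for higher, blue for lower), with Gadd45a farthest to the left in the first panel (-2.52) and farthest to the right in the second (2.66).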

How the data were processed

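Ovarian RNA-seq libraries of 12 rats, 4 each in each group of the labels, were used. According to the study's methods the authors cleaned the reads, mapped them by HISAT2 and assigned them to genes by featureCounts, and they deposited FPKM values computed from those counts and the gene lengths. The submitters' processing notes name STAR 2.5.1b and HTSeq 0.6.0 instead, and which set made the deposited FPKM could not be settled. The genome build is not given in the sources used here, and coordinates are those of the authors' file. Strand-specific counting is not stated. The authors' own fold changes and p-values for their comparisons are in the same table and were not used. The methods name 3 biological replicates per condition for that test, and 4 libraries per group were used here. The number of columns of other samples was 0.

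The table repeats a gene's FPKM on each transcript line without any difference, and 1 line per gene was kept. Counts were not at hand, so the 13430 of 19730 genes whose average over the 12 libraries reached 1 FPKM were analysed on the log2(FPKM + 1) scale by limma 3.58.1 (R 4.3.3, with lmFit and a trended eBayes), 2 groups at a time, and were called at a Benjamini-Hochberg adjusted p under 0.05 over all genes tested. Fold changes are on that scale and understate the change of low genes. Fitted 95% intervals come from the same model. Single values were also compared by exact two-sided permutation tests of 4 rats against 4, whose smallest p is 0.0286. This was done for 24 comparisons of the 8 genes and 12 of the within-library differences, without adjustment over them. On simulated data for PCOS compared with control (10 sets of 13430 genes, 200 of them shifted by a log2 value of 1) the recovery was 79.9%, 100% with the right sign, and 4.74% of calls were false.

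Depth is unknown from FPKM. The commonest ratio between values under 0.1 FPKM, on which 7.67% to 12.63% of the pairs lay, placed it between 0.917 and 1.121 times that of control replicate 1.

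The 8 genes, the pathway lists and the marker lists were chosen with earlier results of these data known. Besides the 8, the text names their listed relatives (Igf1r, 3 PI3-kinase catalytic and 2 regulatory subunits, Foxo3, Foxo4), apart from items that are not reported here. Of each list and comparison it names the largest rise and the largest fall among called genes whose groups did not overlap. For each of the 8 it names the genes with the highest correlation. Single marker genes were named after their values were seen. Marker lists of luteal cells, oocytes, endothelium, smooth muscle and stroma, adipocytes and oviduct or surface epithelium were also measured. Alternatives covered a pseudocount of 0.1, no filter on low values, 1 model of all 12 libraries, the replicate number as a block, libraries rescaled by median ratio and each library left out. Python 3.11.15, pandas 2.3.3, scipy 1.17.1 and matplotlib 3.10.9 were used.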

Additional observations from a re-analysis of the deposited data

Results flagged for a closer look

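In 36 sets of 4 libraries, the 3 groups of each of the 8 genes and of 4 within-library differences, the highest or lowest library was tested for its distance from the rest by Dixon's criterion, which flags about 1 set in 20 by chance, or 1.8 of 36. It found 3. Akt2 in PCOS-MV replicate 1 was at 113.8 FPKM, against 53.7 to 58.9 FPKM in the other 3 PCOS-MV libraries. In the same library Akt2 minus Akt1 was 0.5582 on the log2(FPKM + 1) scale, against -0.2405 to -0.1861 in the other 3. Irs2 in PCOS replicate 4 was at 8.139 FPKM, against 7.19 to 7.33 FPKM in the other 3 PCOS libraries. The cause was not tested for any of them.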

How the results depend on the processing

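The values of the 8 genes were recomputed 312 times over the 3 comparisons and 13 alternatives, and 297 kept their direction and their side of the threshold. No call was lost, 3 values gained one and 12 changed sign, all of these in values that were not called. With the libraries rescaled, Insr in PCOS-MV compared with PCOS was -0.0111 in place of 0.0153. Over all 13 alternatives the values that changed sign had the following ranges. In PCOS compared with control they were -0.1427 to 0.1554 for Irs1, -0.268 to 0.0127 for Irs2, -0.1264 to 0.2552 for Foxo1 and -0.0191 to 0.15 for Foxo4. In PCOS-MV compared with PCOS they were -0.0343 to 0.0664 for Insr, -0.1497 to 0.0139 for Irs2, -0.0287 to 0.0894 for Pik3cd and -0.0153 to 0.1315 for Foxo4, and in PCOS-MV compared with control -0.036 to 0.0543 for Akt1. Of 676 values of the other named pathway genes, 614 kept direction and side, 46 lost a call, 11 gained one and 5 changed sign without being called (Foxo4 and Pik3cd).

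The replicate numbers were not taken to pair the libraries, since in no comparison were all 4 same-numbered pairs correlated above 0.1. The correlation of deviations between same-numbered libraries was -0.0327 to 0.0236 for PCOS and control, 0.0353 to 0.172 for PCOS-MV and PCOS (3 of 4 above 0.1, each of these with its own number as the best match) and -0.0534 to 0.216 for PCOS-MV and control. With the replicate block, Akt2 in PCOS compared with control had a limma adjusted p of 0.028, 3 of the 8 genes were called there in place of 2, and 0 genes were called in PCOS-MV compared with control in place of 1. Without single libraries the number of genes called was 2762 to 3915 in PCOS compared with control, 2445 to 3354 in PCOS-MV compared with PCOS and 1 to 4 in PCOS-MV compared with control. Depth could not be weighed without read counts.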
